A study of Sus scrofa with 20 samples.

Results

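PPARG, the gene of the nuclear receptor PPAR gamma, was followed through the backfat of 20 pigs as 1 locus of the 23483 in the deposited gene tables. It was taken by its locus name, XLOC_007928, which carries the single Ensembl identifier ENSSSCG00000011579. The animals, 10 females and 10 castrated males of the Italian Large White breed, were kept in 1 environment on 1 diet and brought to a weight of 150 to 160 kg. Age at slaughter was 235 to 250 days in females and 233 to 249 days in castrated males. Backfat is the subcutaneous fat along the back, and each animal gave 1 library of polyadenylated RNA, read as pairs of 100 bp. Libraries are called by their labelled sex and a number that only names them. The male group was castrated throughout, so sex and castration cannot be told apart, and single weights are not given.

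PPAR gamma is the receptor that drives precursor cells to become fat cells and keeps mature fat cells in that state. It binds DNA together with a retinoid X receptor, is activated by fatty acids and their derivatives and by the thiazolidinedione drugs, and exchanges corepressor for coactivator proteins when a ligand is bound. Its known target genes in fat take up, bind, store and release fatty acids.

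Library totals lay between 25754778 and 51248122 counts. Fat cell genes were abundant, with means of 626 FPKM for the droplet protein CIDEC and 480 FPKM for the lipase LIPE, whereas the 2 skeletal muscle markers with a locus summed to at most 4.17 CPM in any library. FPKM count fragments against transcript length and library depth, and CPM count reads against library depth after TMM scaling. Libraries stood apart in 2 ways. At sex-separated loci, the pair of libraries numbered 10 had the other sex's level. XLOC_042814, for example, had 70.8 CPM in the library labelled female 10 against 0 to 0.164 CPM in the other 9 females. The same locus had 0 CPM in the castrated male library numbered 10 against 46.3 to 67.6 CPM in the other 9. Castrated male 1 was the lowest library for PPARG, and much of what follows is therefore given with and without it. It was extreme in much else, with the lowest mitochondrial share of counts, 8.49%. Of the gene lists below, its summed CPM was lowest for oxidative phosphorylation (1378) and fibroblast and matrix markers (12190). It was highest for T and NK cell (140), endothelial (2931) and fat cell progenitor markers (635.7). For other lists, such as adipocyte markers, it stood at neither end.

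PPARG was an abundant transcript in this tissue and varied moderately between animals. Its raw count ran from 6266 to 16023 per library, so that counting error was 0.79 to 1.26% of the value. The spread between libraries was 23.9% (coefficient of variation of CPM). With 1 library per animal, differences between animals cannot be told apart from those of sampling and preparation. By mean FPKM it ranked 438th of 21587 loci tested, above 98.0% of them. The CPM was 219 at its lowest, 292 at the median and 437 at its highest in females, and 149, 326 and 393 in castrated males. The 2 groups overlapped over nearly their whole range, with castrated male 1 alone below every female, and female 4 and, barely, female 10 above every castrated male. In FPKM, the values were 130, 171 and 271 in females and 84.5, 193 and 256 in castrated males. On both scales castrated male 1 was lowest and female 4 highest.

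**Figure D1:**
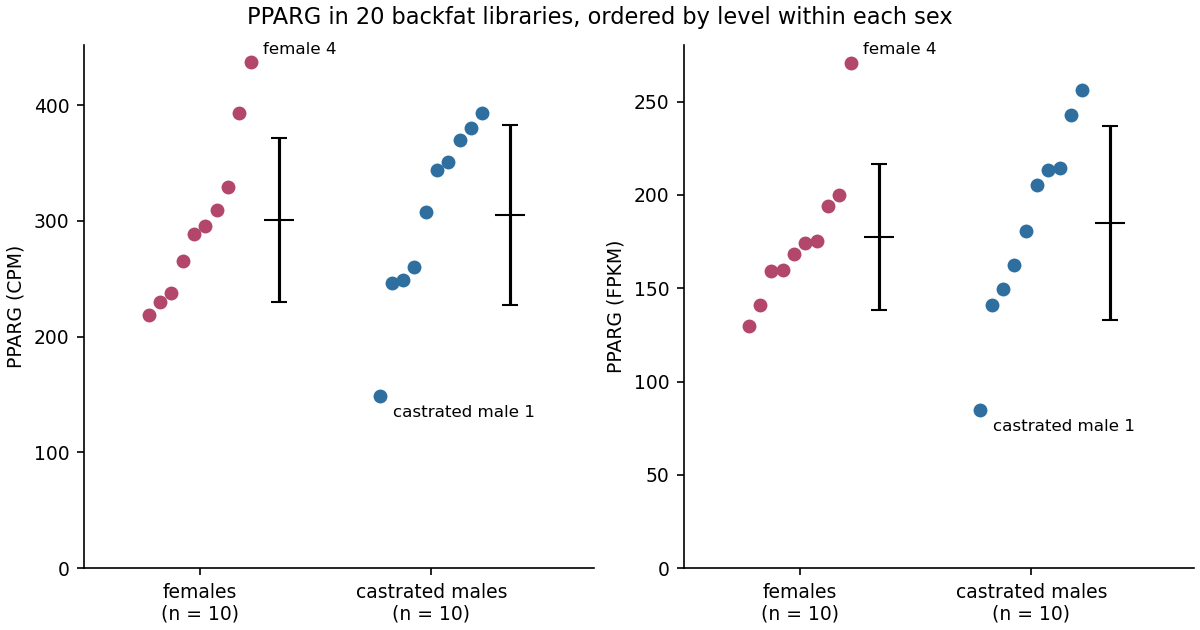
PPARG in each of 20 backfat libraries, in CPM (left) and FPKM (right), with the mean and SD of 10 females and of 10 castrated males beside the points. The sexes overlap, castrated male 1 is lowest at 149 CPM and 84.5 FPKM, and female 4 is highest at 437 CPM and 271 FPKM.

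The range over all 20 animals was 2.94-fold, and 1.996-fold without castrated male 1. With sex means removed, the SD of log2 CPM was 0.381 for PPARG against a median of 0.262 over the 8769 loci of mean CPM of at least 10, and 76.3% of those loci varied less. Leaving out castrated male 1 gave an SD of 0.301 against a median of 0.255, and 63.1% varied less. Of 4 properties of the libraries set against PPARG across the 20 libraries, none passed a permutation test adjusted over the 4. Total counts and the TMM factor enter the CPM of PPARG itself, so their values are no independent check of depth or scaling. Age had Pearson r = 0.195 (adjusted p = 0.517) and Spearman rho = 0.119 (adjusted p = 0.624), and total counts r = -0.253 (adjusted p = 0.517) and rho = -0.262 (adjusted p = 0.471). The share of counts at mitochondrial protein genes, 8.49 to 26.3% per library, had r = -0.170 (adjusted p = 0.517) and rho = -0.349 (adjusted p = 0.471), and the TMM factor r = -0.184 (adjusted p = 0.517) and rho = 0.223 (adjusted p = 0.471). Leaving out castrated male 1 and female 4, the 2 libraries farthest from the PPARG median, gave an r of 0.172 for age, -0.363 for total counts, -0.573 for the mitochondrial share and 0.513 for the TMM factor.

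PPARG did not differ detectably between the sexes or with age. Females averaged 300.5 ± 70.8 CPM and castrated males 304.9 ± 77.6 CPM (SD, n = 10 each), a log2 difference of -0.02 (SE 0.156, edgeR adjusted p = 1). In FPKM the means were 177 ± 39.2 in females and 185 ± 51.9 in castrated males. With sex held in the model, PPARG had an age slope of 0.13 on the log2 scale per 10 days (SE 0.161, edgeR adjusted p = 0.913), and the slopes of the sexes differed by -0.03 (females minus castrated males, SE 0.333, edgeR adjusted p = 0.995). The background of these edgeR fits was 0% of 21587 loci called in each. For sex, age and their interaction 935, 1189 and 1170 loci reached an unadjusted p under 0.05. The calls of DESeq2 numbered 6, 5 and 3, PPARG not among them. The p-values set each difference or slope against the spread between these animals, 1 library each, and all of the fits keep the labels as given. Without both libraries numbered 10, the PPARG sex difference was -0.09, the PPARG age slope 0.08 and the PPARG age slope difference between sexes -0.14, none of them called. The sign of the sex difference turned under other scalings, with values near 0 on both sides.

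The locus held 9 isoforms in the Cufflinks tables, tied to it by their summed FPKM, which came within 0.306 FPKM of the locus in every library. No single isoform dominated. TCONS_00020343, the only one with a named nearest reference transcript (ENSSSCT00000012672), averaged 43.1 ± 16.3 FPKM (SD, n = 20) and 23.5% of the locus, and led in 9 libraries. TCONS_00020344 averaged 38.7 ± 23.1 FPKM and led in 6, and TCONS_00020335 averaged 36.2 ± 11.3 FPKM and led in 5. These leaders changed from animal to animal within each sex. TCONS_00020344 ran from 4.15 FPKM in female 6 to 80.0 FPKM in castrated male 9. Its share of the locus ran from 2.47 to 37.8% over the libraries, and that of TCONS_00020343 from 10.98 to 31.9%. The next 3 averaged 20.4, 19.3 and 16.2 FPKM, TCONS_00020341 averaged 6.87 FPKM, and the other 2 stayed under 1 FPKM in every library.

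Isoform estimates at this locus are divisions of shared reads, and TCONS_00020336 and TCONS_00020337 were listed at 0 in female 7 and at 0.246 and 1.43 FPKM in castrated male 10. Between the sexes, the log2(FPKM + 0.1) difference of the 7 isoforms tested ran from -0.56 (TCONS_00020341, SE 1.11) to 0.12 (TCONS_00020336, SE 0.932), with limma adjusted p = 1 throughout. The background there was 0.06% of 33316 isoforms called. For age 0% were called (1471 at an unadjusted p under 0.05), and the smallest limma adjusted p among the PPARG isoforms was 0.977. The share of the locus did not pass for any of the 5 isoforms tested (limma adjusted p = 1 each, 0% of 18505 isoforms called, 350 at an unadjusted p under 0.05).

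**Figure D2:**
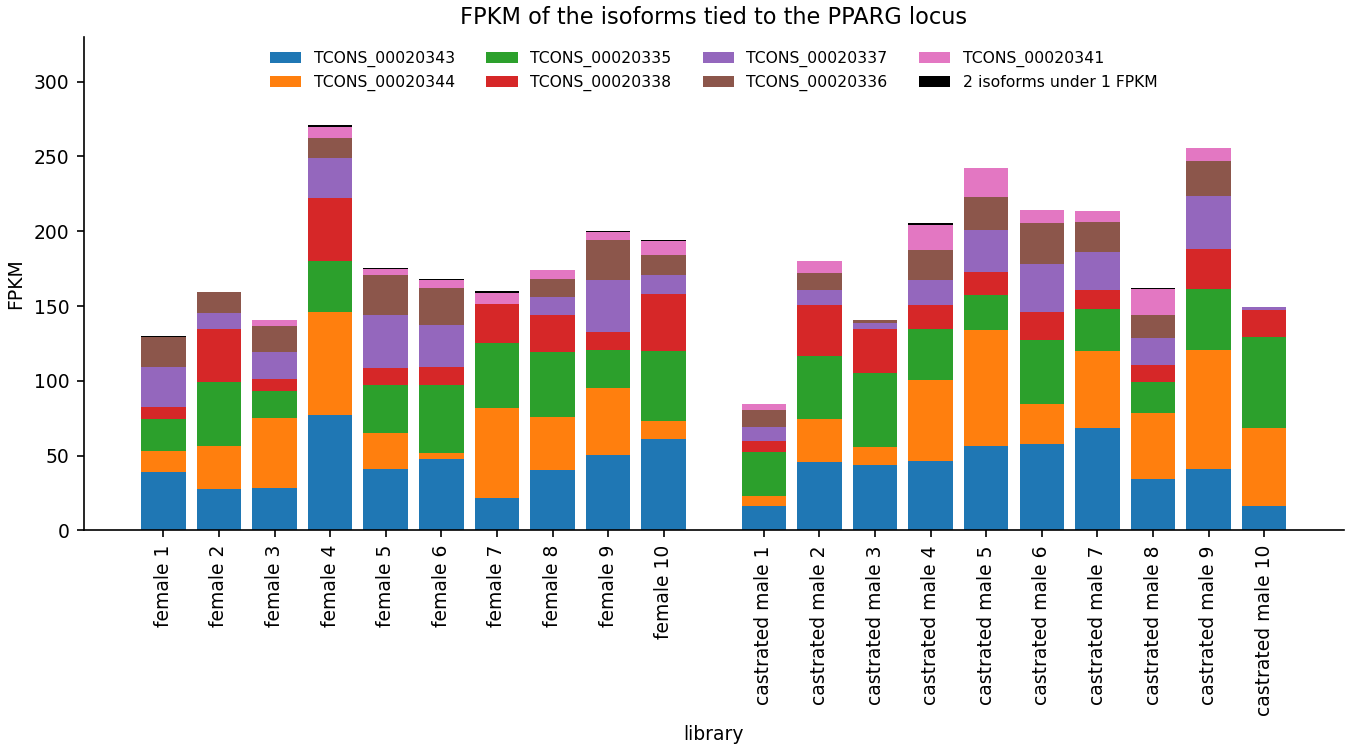
FPKM of the 9 isoforms tied to the PPARG locus, stacked by library, with females on the left and castrated males on the right (the 2 isoforms under 1 FPKM are drawn together). TCONS_00020343, TCONS_00020344 and TCONS_00020335 take most of the height and trade places as the leading isoform.

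Genes on both sides of PPARG on its chromosome, by the RefSeq gene order of Sscrofa11.1, were looked at to see whether its neighbours shared its pattern. Of 9 named neighbours 4 had a locus in the tables, and 0 of those 4 passed the test on PPARG described next. The autophagy enzyme gene ATG7 came nearest, with r = 0.662 and a slope of 0.49 (SE 0.143, edgeR adjusted p = 0.0797). MKRN2, a ubiquitin ligase gene, had a slope of 0.22, TAMM41, for an enzyme of mitochondrial lipid synthesis, 0.23, and VGLL4, a transcriptional cofactor gene, -0.23. ATG7 passed under upper-quartile scaling, with loci under 10 CPM left out, with total counts in the model and in DESeq2. The strand setting of the counting is not given in the sources used here, so reads of antisense transcripts at the locus cannot be told apart from PPARG.

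To find the genes that followed or opposed PPARG between animals, every other locus was regressed on the log2 CPM of PPARG with sex in the model. Slopes are in log2 units per doubling of PPARG. In edgeR 115 of 21586 loci rose with PPARG (0.533%) and 110 fell (0.51%), 1.04% in all, at an adjusted p of 0.05. A further measure of the background is that 3933 loci (18.2%) had an unadjusted p under 0.05, and the unadjusted counts of the gene lists below are to be read against that share. Of the 225 called loci, 64 risers and 64 fallers carried a symbol. The median slope over all loci was -0.02, and 48.0% of slopes were above 0. The number depended strongly on the setting. With library totals in place of TMM factors 6 loci rose and 0 fell, and with age added 2 rose and 0 fell. With DESeq2 676 rose and 496 fell, 1172 of 21586 loci. The DESeq2 counts of the gene lists below are to be read against that larger share. Each of the 225 loci kept its sign in each of those 3 fits. These fits reuse the libraries from which the loci were called, so kept signs are not independent support. Without both libraries numbered 10, 114 rose and 158 fell, 165 of them among the 225. Bulk RNA cannot tell fewer cells of a type from less RNA per cell, and this holds for every gene below.

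Single libraries moved the count as much. Without castrated male 1, 2 loci passed (PSAT1 and XLOC_006545, a locus with no symbol). Without female 3, castrated male 4, female 4 and castrated male 5 the counts were 2, 3, 3 and 4. They were 34 without castrated male 3, 46 without castrated male 7, 65 without female 8, 73 without castrated male 8, 82 without female 2, 85 without castrated male 2 and 130 without female 6. In the other direction, 686 loci passed without castrated male 6 and 779 without female 7. Of the 225 loci, 224 or 225 kept their sign whichever single library was left out, and 1 locus, PSAT1, passed in all 20. These fits, too, share most libraries with the fit that called the loci.

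PSAT1, the phosphoserine aminotransferase of serine synthesis, tracked PPARG most closely of the named loci. It stood at 226 CPM at its lowest, 423 at the median and 754 at its highest in females, and at 149, 429.9 and 857 in castrated males. The sexes overlapped throughout, and the lowest library of each sex was the one lowest for PPARG, female 3 and castrated male 1. The slope was 1.42 (SE 0.159, edgeR adjusted p = 0.000276), with r = 0.913 over 20 libraries (permutation adjusted p = 0.0432, shared by 5 loci at the smallest p these permutations can give, 1e-05) and rho = 0.917 (adjusted p = 0.127). Its r was 0.830 without castrated male 1 and female 4, and within sexes 0.904 in females and 0.919 in castrated males. PSAT1 passed in each of the 33 alternative fits of the slope, with a slope of 1.36 (edgeR adjusted p = 0.0201) without castrated male 1 and one of 1.41 (edgeR adjusted p = 0.00189) without both libraries numbered 10. Its r without that pair was 0.911, and it then missed the threshold of the permutation test (adjusted p = 0.0830).

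MAL2, a membrane proteolipid of vesicle transport, came next. It stood at 99.8 CPM at its lowest, 148 at the median and 245 at its highest in females, and at 62.6, 137 and 193 in castrated males, with female 3 and castrated male 1 again the lowest. Its slope was 1.09 (SE 0.152, edgeR adjusted p = 0.00495) and r = 0.871 (permutation adjusted p = 0.0540). MAL2 passed in 32 of the 33 alternative fits. The exception was the fit without castrated male 1, where the slope was 1.03 (edgeR adjusted p = 0.0789).

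The other 9 risers named by highest r had slopes of 0.36 to 1.11. ASPA, the aspartoacylase that frees acetate from N-acetylaspartate, had a slope of 1.02 (edgeR adjusted p = 0.0345), and its r was 0.792 with all libraries and 0.794 without the 2 farthest. PEX3, needed to build peroxisome membranes, had a slope of 1.11 (edgeR adjusted p = 0.0345) and r = 0.815, which was 0.557 without those libraries. The antioxidant enzyme PRDX6 had a slope of 0.84, the dehydrogenase DHRS7 0.78, the peroxiredoxin-like PRXL2A 0.57, the small membrane protein SMIM7 0.52, the lysosomal membrane protein LAPTM4B 0.50, the heme synthesis enzyme UROS 0.43 and the membrane protein insertion subunit EMC7 0.36. LAPTM4B was the other named gene past the permutation test of r (r = 0.806, adjusted p = 0.0432). In all, that test called 5 of 21586 loci (0.0232%) for Pearson and 0 for Spearman, with 2659 loci at an unadjusted p under 0.05 for Spearman.

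**Figure D3:**
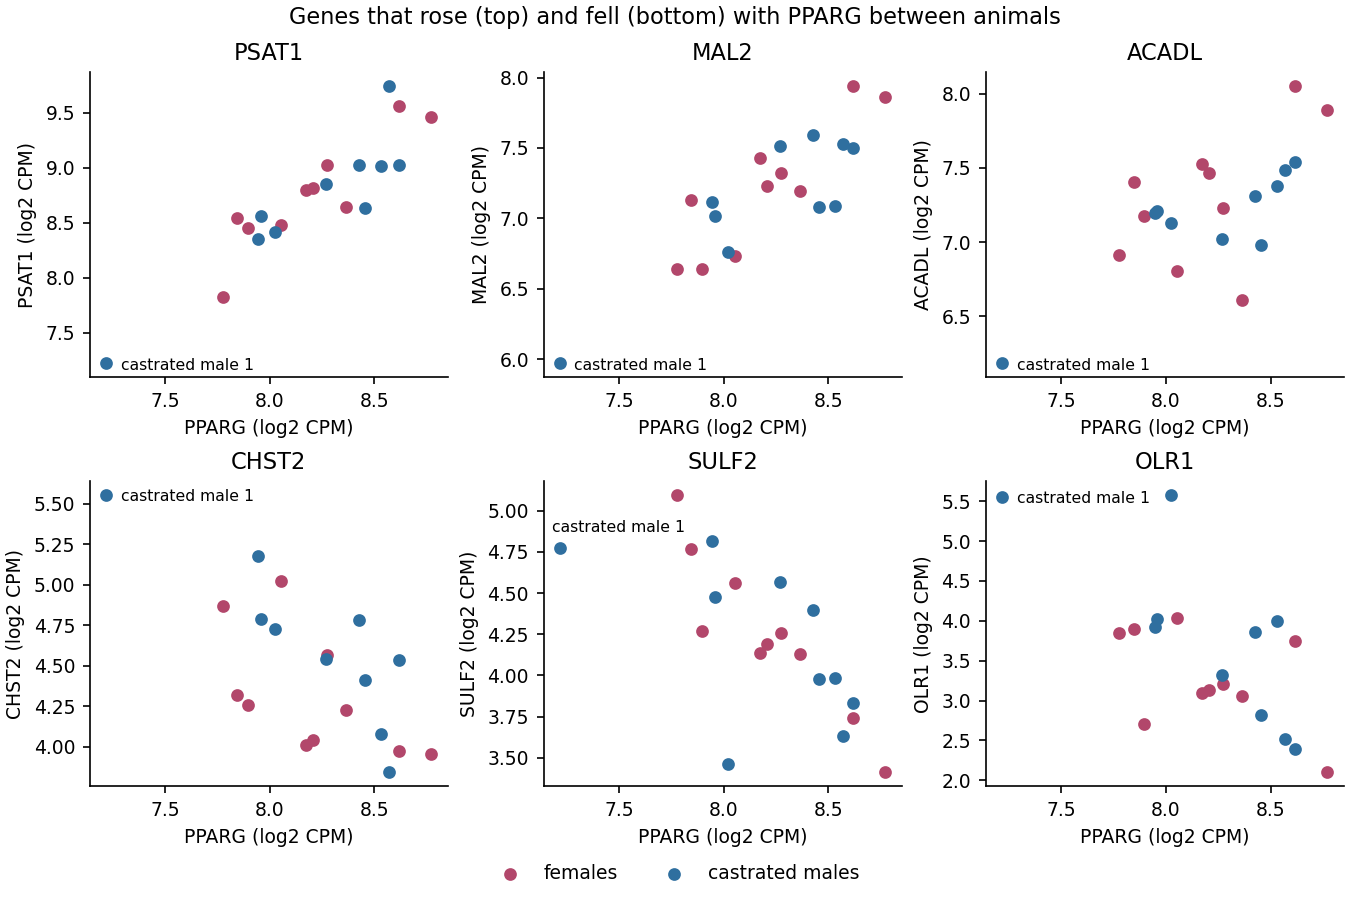
Log2 CPM of 6 genes against log2 CPM of PPARG, 1 point per library, females and castrated males in different colours. PSAT1, MAL2 and ACADL rise and CHST2, SULF2 and OLR1 fall along the PPARG axis, and castrated male 1 lies at the low PPARG end of every panel.

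The 12 fallers named by lowest r had r from -0.762 to -0.713, and were led by CHST2, a sulfotransferase that modifies carbohydrate chains on proteins. CHST2 stood at 15.4 CPM at its lowest, 18.9 at the median and 32.5 at its highest in females, and at 14.3, 24.8 and 46.9 in castrated males. The sexes overlapped, with castrated male 1 the highest of all. Its slope was -0.88 (SE 0.172, edgeR adjusted p = 0.0345). SULF2, an enzyme that removes sulfate from heparan sulfate chains, had a slope of -0.95 (SE 0.202, edgeR adjusted p = 0.0424), r = -0.926 within females and r = -0.582 within castrated males.

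The other 10 fallers had slopes of -1.19 to -0.46. ITGA4, the alpha 4 integrin of leukocytes, stood at 8.59, 11.99 and 18.1 CPM (lowest, median and highest) in females and at 8.45, 15.8 and 43.8 CPM in castrated males, with a slope of -0.99 (edgeR adjusted p = 0.0345). ARHGAP30, a GTPase-activating protein of blood cells, had a slope of -1.19 and reached 103.4 CPM in castrated male 1, against 14.1 to 41.2 CPM in females. The rest were the receptor phosphatase PTPRJ at -0.79, the GTPase regulator STARD8 at -0.81, the nuclear body protein PML at -0.73, the antiviral cofactor KHNYN at -0.58, TRIM26 at -0.52, the protein disulfide isomerase PDIA3 at -0.47, the lipid phosphatase MTM1 at -0.46 and the DNA methyltransferase DNMT1 at -0.46. Castrated male 1 was the lowest of all libraries for 10 of the 11 named risers and the highest for 11 of the 12 named fallers. Without castrated male 1 and female 4, r ran from 0.536 to 0.830 in the risers and from -0.647 to -0.396 in the fallers. Without castrated male 1 the slopes of 4 of these 12 fallers were more than 1.5 times smaller, at -0.34 for KHNYN, -0.25 for PDIA3, -0.52 for PTPRJ and -0.30 for DNMT1. None of the 29 genes that the naming rule gave as risers or fallers, the list members below included, changed sign in any of the 20 fits without 1 library. Those fits share most of the libraries that picked the genes. DESeq2 called all 29, as it did all of the 225 loci called in edgeR. In edgeR, 24 of those 29 passed without both libraries numbered 10, 2 with age added and 1 without castrated male 1.

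**Figure D4:**
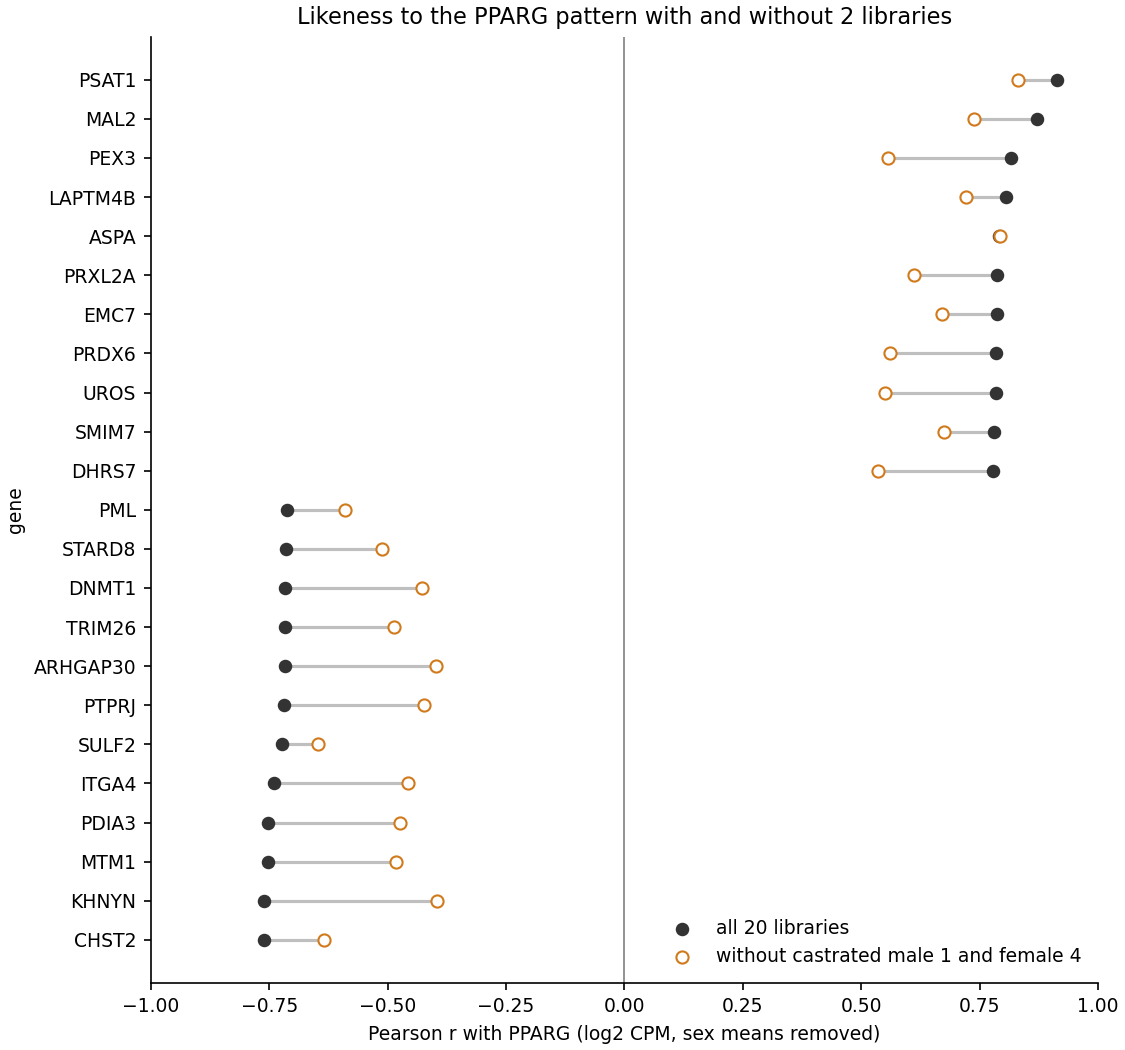
Pearson r with PPARG (horizontal axis, log2 CPM, sex means removed) of the 11 named genes of highest r and the 12 of lowest r, over all 20 libraries (filled) and without castrated male 1 and female 4 (open). Without these 2 libraries the risers lie at 0.536 to 0.830 and the fallers at -0.647 to -0.396, with KHNYN closest to 0.

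The other PPAR receptors and the retinoid X receptors passed the test of the slope on PPARG in neither direction. PPARD, the broadly expressed member of the family, averaged 25.1 ± 7.25 FPKM and PPARA, the member known from liver, 2.32 ± 1.02 FPKM (SD, n = 20), against 181 ± 44.9 FPKM for PPARG. Their slopes were 0.13 (PPARD, SE 0.258, edgeR adjusted p = 0.827) and 0.18 (PPARA, SE 0.380, edgeR adjusted p = 0.844). The DNA-binding partner RXRB averaged 14.4 ± 1.90 FPKM with a slope of -0.05 (edgeR adjusted p = 0.860), and RXRG 10.67 ± 5.18 FPKM with a slope of -0.32 (edgeR adjusted p = 0.629). RXRG was highest in castrated male 1, at 41.6 CPM, and its slope was 0.46 without that library. RXRA was not matched to a locus and is not analysed here.

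Coregulators of PPARG passed in neither direction in edgeR. Of 10 coactivators 0 passed (3 at an unadjusted p under 0.05, and NCOA3 and SMARCA4 in DESeq2), 2 slopes were above 0 and the median was -0.32, which was -0.14 without castrated male 1. NCOA3 had the lowest slope, -0.68 (adjusted p = 0.0924), followed by PRDM16 at -0.63, and MED1, the mediator subunit that binds nuclear receptors, stood at 0.01. Of 6 corepressors 0 passed (1 at an unadjusted p under 0.05, 0 in DESeq2), with a median of -0.16. The list of factors that promote fat cell formation had 0 of 13 past the threshold (3 at an unadjusted p under 0.05, 0 in DESeq2), 7 slopes above 0 and a median of 0.01, with CEBPA, the partner of PPARG in that process, at 0.26 (SE 0.214, edgeR adjusted p = 0.539). That list's median was 0.09 without castrated male 1. The inhibitors of fat cell formation had 0 of 11 past it (5 at an unadjusted p under 0.05, FOXO1 in DESeq2) and a median of -0.08. For comparison, 1.04% of all loci passed, 18.2% had an unadjusted p under 0.05 and the median was -0.02.

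Genes that make candidate PPARG ligands from arachidonic acid lay mostly below 0. PTGS1, cyclooxygenase 1, fell with a slope of -1.16 (SE 0.261, edgeR adjusted p = 0.0452). It stood at 13.3, 27.7 and 60.7 CPM (lowest, median and highest) in females and at 16.4, 28.0 and 67.4 CPM in castrated males, the last in castrated male 1, and its slope was -1.18 (adjusted p = 0.348) without that library. PTGS1 was the only one of 7 members to pass, against 1.04% of all loci. An unadjusted p under 0.05 was reached by 5 of the 7, against 18.2% of all loci. Of the 7 slopes 6 were below 0, and the median was -0.76. The prostaglandin E synthase PTGES had -0.81 (adjusted p = 0.0742), the lipoxygenases ALOX5 and ALOX15 -0.76 and -0.77, and PTGS2, cyclooxygenase 2, 0.60. None of these 4 passed in edgeR, and DESeq2 called PTGES.

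Among 25 tested target genes of PPARG, 1 rose and 1 fell in edgeR, against 0.533% and 0.51% of all loci. There were 18 slopes above 0 and the median was 0.35. An unadjusted p under 0.05 was reached by 8, against 18.2% of all loci, and DESeq2 called 3. Without castrated male 1, 22 slopes were above 0, the median was 0.37 and 0 passed in edgeR. GPD1, which makes glycerol 3-phosphate for triglycerides, rose with a slope of 0.71 (SE 0.168, edgeR adjusted p = 0.0461). Without castrated male 1 its slope was 0.54 (edgeR adjusted p = 0.436), and it passed in 6 of the 20 fits without 1 library. It stood at 315, 438 and 600.3 CPM (lowest, median and highest) in females and at 208, 430.5 and 597 CPM in castrated males, with castrated male 1 the lowest of all. Its r was 0.337 within females and 0.945 within castrated males, and that difference was not called by the interaction test below. OLR1, a scavenger receptor for oxidised LDL, fell with a slope of -1.58 (SE 0.381, edgeR adjusted p = 0.0478). OLR1 stood at 4.23, 8.97 and 16.4 CPM in females and at 5.20, 14.8 and 47.7 CPM in castrated males, where castrated male 8 and castrated male 1 were far above the rest.

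Targets in the droplet and lipase machinery had slopes on both sides of 0, none of which passed in edgeR. PLIN1, the droplet coat protein, had 0.65 (SE 0.197, edgeR adjusted p = 0.0924) at a locus it shares with PEX11A, so that reads of the pair cannot be told apart, and DESeq2 called it. LIPE had 0.62 (adjusted p = 0.246), CIDEC 0.56 (adjusted p = 0.410), ACSL1, which activates fatty acids, 0.62 (adjusted p = 0.352) and PNPLA2, the triglyceride lipase, 0.12 (adjusted p = 0.780). LIPE had 3 loci, of which only that of highest mean CPM was used. Below 0 were the droplet protein PLIN5 at -0.18 (adjusted p = 0.791) and the monoglyceride lipase MGLL at -0.11 (adjusted p = 0.799). ANGPTL4, a secreted inhibitor of lipoprotein lipase, and FABP5 both stood at -0.02, and PCK1, which feeds glycerol synthesis, at -0.25 (adjusted p = 0.885). Leaving out castrated male 1 gave CIDEC a slope of 0.03, ACSL1 one of 0.28 and PCK1 one of 0.48. FABP4, LPL, CD36, ADIPOQ and LEP were not matched to a locus and are not analysed here.

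Of the 30 lists, fatty acid oxidation held the most members past the threshold. The lists differ in size. Of 15 tested 3 rose, against 0.533% of all loci, and 9 had an unadjusted p under 0.05, against 18.2%. In this list 12 slopes were above 0 and the median was 0.35. ACADL, the long-chain acyl-CoA dehydrogenase, had a slope of 0.79 (SE 0.180, edgeR adjusted p = 0.0461) and stood at 97.5, 159 and 265 CPM in females and 72.5, 147 and 186 CPM in castrated males. ETFB, which passes electrons from those dehydrogenases, had 0.71 and HADH, the short-chain hydroxyacyl-CoA dehydrogenase, 0.72. HADH had 2 loci, of which only that of highest mean CPM was used. CPT1A, which lets fatty acids into mitochondria, stood at -0.75 (adjusted p = 0.0869) and did not pass in edgeR. DESeq2 called 6 of the 15, the 3 risers with HADHB at 0.40, ETFDH at 0.43 and CPT1A, whose slope was -0.35 without castrated male 1. None of the 3 edgeR risers passed without castrated male 1, where their slopes were 0.68, 0.68 and 0.67. Oxidative phosphorylation had 0 of 12 past the threshold in edgeR (7 at an unadjusted p under 0.05, SDHC in DESeq2), but all 12 slopes were above 0 with a median of 0.43, SDHC of complex II at 0.87 (adjusted p = 0.0612) the highest. The median was 0.19 without castrated male 1, again with 12 of 12 above 0.

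Fatty acid synthesis had the highest median slope of the 30 lists, and a much lower one without castrated male 1. Of 12 members 0 passed in edgeR (4 at an unadjusted p under 0.05, IDH1 in DESeq2), 10 slopes were above 0 and the median was 0.73. FASN, the fatty acid synthase, had a slope of 1.04 (SE 0.884, edgeR adjusted p = 0.556) and SCD, the stearoyl-CoA desaturase, 0.90 (SE 0.733, edgeR adjusted p = 0.540). In the fit without castrated male 1 these were 0.20 and 0.15, and the median of the list was 0.22. The r of SCD was 0.527 over 20 libraries and -0.239 without castrated male 1 and female 4. Summed over the list, castrated male 1 was lowest at 1240 CPM and female 4 highest at 36460 CPM.

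**Figure D5:**
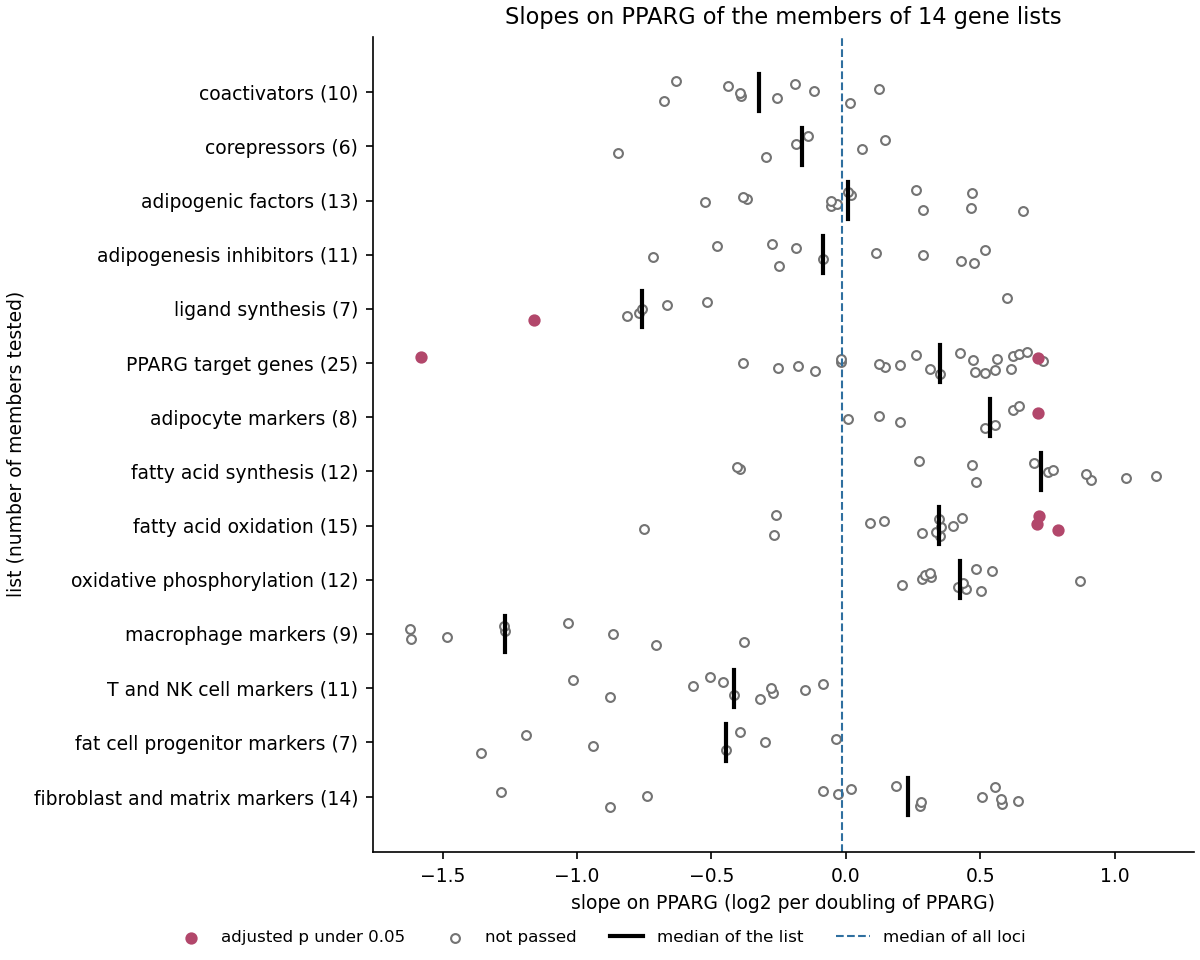
Slopes on PPARG (log2 per doubling) of the tested members of 14 gene lists, with the median of each list as a bar and that of all loci as a dashed line. Filled points passed an adjusted p of 0.05. Metabolic lists lie mostly to the right and ligand synthesis, macrophage, T cell and progenitor lists to the left.

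Markers of macrophages, T cells and fat cell progenitors had slopes on 1 side of 0, though no single marker passed in edgeR. Of 9 macrophage markers 0 passed (8 at an unadjusted p under 0.05, 4 in DESeq2), all 9 slopes were below 0 and the median was -1.27. C1QA, a complement subunit, had -1.27 (adjusted p = 0.0759) and TYROBP, a myeloid adaptor, -1.03 (adjusted p = 0.0729). Summed macrophage CPM spanned 177 to 558 in females and 274 to 1256 in castrated males, highest in castrated male 1. With that library left out all 9 slopes were again below 0 and their median was -0.70. T and NK cell markers had 11 of 11 slopes below 0 (0 passed, 2 at an unadjusted p under 0.05, near the 18.2% of all loci, and 1 in DESeq2) and a median of -0.42, and 9 of 11 below 0 without castrated male 1. Fat cell progenitor markers had 7 of 7 below 0 (0 passed, 3 at an unadjusted p under 0.05, 2 in DESeq2) and a median slope of -0.45. Adipocyte markers, in contrast, had 8 of 8 above 0 and a median of 0.54 (3 at an unadjusted p under 0.05, 2 in DESeq2). In edgeR 1 of them passed, GPD1, but not without castrated male 1. The lowest of the 8 slopes, that of CFD, was 0.006 with r = -0.066, and it kept its sign in 11 of 20 fits without 1 library. The part of cell composition in the slopes of single genes was not tested.

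The remaining lists held no member past the threshold in edgeR. Endothelial markers had 6 of 7 slopes below 0 and a median of -0.32 (2 at an unadjusted p under 0.05, 1 in DESeq2), smooth muscle and pericyte markers 5 of 7 and -0.44 (3 and 0), and mast cell and granulocyte markers 3 of 4 and -0.07 (1 and 0). Fibroblast and matrix markers had 9 of 14 above 0 with a median of 0.23 (8 at an unadjusted p under 0.05, 3 in DESeq2), which was 0.01 without castrated male 1. Nerve markers had a median of 0.54 over 5, and 2 keratinocyte markers -0.05. The 3 erythroid markers lay below 0 with a median of -0.63, the 1 B cell marker tested stood at -0.27, and neither of the muscle markers was tested. No member of the nerve, keratinocyte, erythroid and B cell lists reached an unadjusted p under 0.05, and DESeq2 called 0 of them. The 4 brown or beige fat genes had 0 above 0 and a median of -0.09, and the 4 genes of PPARG protein modification a median of -0.08 (each 1 at an unadjusted p under 0.05, 0 in DESeq2). Adipocyte hormones and their receptors had 8 of 9 slopes above 0 and a median of 0.21 (1 at an unadjusted p under 0.05, 0 in DESeq2). Lipolysis genes had 6 of 8 above 0 and a median of 0.27 (2 at an unadjusted p under 0.05, PLIN1 in DESeq2), and the reference adipose genes other than PPARG 7 of 8 and 0.59 (2 at an unadjusted p under 0.05, PLIN1 in DESeq2). Leaving out castrated male 1 moved several of these medians by over 1.5 times, to -0.19 for endothelial, 1.18 for nerve, -1.44 for erythroid and -0.49 for B cell markers, 0.16 for keratinocyte markers, 0.04 for protein modification, -0.16 for brown or beige fat, 0.45 for lipolysis and 0.23 for the reference adipose genes.

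Whether a gene followed PPARG differently in females and castrated males was tested by the interaction. In edgeR 0% of 21586 loci were called, 1113 had an unadjusted p under 0.05, and 10 were called by DESeq2. The smallest p fell on XLOC_042814, with a slope difference of 20.4 (females minus castrated males, SE 3.66, edgeR adjusted p = 0.177), and on XLOC_042816 (18.7, SE 3.38, adjusted p = 0.177). Neither carries a symbol. Both are loci where the libraries labelled female 10 and castrated male 10 bear the other sex's level, and without those libraries the differences were 3.89 and 0.80 (adjusted p = 0.979 and 1). Without female 4, 11 loci were called, and without castrated male 10, 6.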

How the data were processed

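Backfat RNA of 10 female and 10 castrated male pigs was measured by oligo-dT RNA-seq. The authors deposited raw read counts per Cufflinks locus, and the authors also deposited FPKM for loci and isoforms. Tools in the submitters' processing notes are Cufflinks 2.1.1, TopHat2 2.0.8, DESeq2 and Bowtie2 2.1.0.0, on the build Sscrofa10.2, with no role stated. Not given in the sources used here are the counting tool, the annotation release, the strand setting and how multiply matched reads were treated. Gene names came from Ensembl identifiers (9360 of 23483 loci) and, for older symbols and neighbours, a RefSeq table of Sscrofa11.1. Where the symbol of a list member had several loci, only the locus of highest mean CPM was used. Such symbols include LIPE with 3 loci and HADH, TYROBP and ANGPTL4 with 2 each, so a value there may not cover the whole gene.

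Counts were fitted with edgeR 4.0.16 quasi-likelihood tests (R 4.3.3), TMM factors, the filterByExpr filter (21587 loci) and Benjamini-Hochberg adjustment over all loci at 0.05. The slope fit used the log2 CPM of PPARG (prior count 2) with sex means removed. Correlations used 100000 permutations, two-sided, in numpy 2.4.6 and scipy 1.17.1. Isoforms of at least 0.5 FPKM in 10 libraries were tested with limma 3.58.1 on log2(FPKM + 0.1), a scale that understates changes of low isoforms. Isoform shares were tested on their arcsine square root. Isoforms were tied to the locus where their FPKM summed to that of the locus within 1%. The fits were tested on simulated data with planted effects. Loci were otherwise drawn independently there, so variation shared between loci and a library extreme at many loci were not covered.

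Named genes were the 12 of highest and 12 of lowest r among called loci with a symbol, 1 Ensembl identifier and mean CPM of at least 10. To these were added up to 4 called members of each of 30 gene lists, the PPAR, RXR and reference adipose genes whatever their result, and 5 neighbours on each side, and 2 genes that this gave are not reported here. Other list members were named for illustration after their values were seen. The gene, lists and rules were chosen with earlier results of these data known. Alternatives covered scaling, filters, DESeq2 1.42.0, FPKM with pseudocounts of 0.1 and 1, covariates, the libraries numbered 10 and each library in turn. No sequences are shown.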

Additional observations from a re-analysis of the deposited data

Results flagged for a closer look

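Of 108 groups of 10 libraries examined for a single value far from the rest, 19 held one. Such a test flags about 1 in 20 by chance in groups not picked by their values. Many of the genes examined here were named for extreme r with PPARG, so that rate is not their chance level. PPARG itself was among the 19 in FPKM, where female 4 stood at 270.8, above the other females. PSAT1 was high in castrated male 5 at 856.7 CPM.

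Castrated male 1 accounted for 12 of the 19. Within castrated males it was the highest library, in CPM, for KHNYN (150.3), MTM1 (31.76), PDIA3 (242.3), ITGA4 (43.75), PTPRJ (91.84), ARHGAP30 (103.4), TRIM26 (48.14), DNMT1 (59.37) and PTGS1 (67.42). It was the lowest for PEX3 (29.1), ACADL (72.5) and CIDEC (215.7). These genes share the library that is also lowest for PPARG, so these values are not independent of each other.

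The rest were single values in CPM. UROS was high in female 4 (39.61) and PML low in the library labelled female 10 (25.22). PNPLA2 was low in the library labelled castrated male 10 (273.9). PCK1 was high in female 9 (511.3) and VGLL4 in female 2 (13.32).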

How the results depend on the processing

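The PPARG sex difference, -0.02 on the log2 scale, was 0.00084 with upper-quartile scaling, 0.0023 with library totals and 0.0078 with loci under 10 CPM left out. The PPARG age slope difference between sexes, -0.03, was 0.035 with library totals. Leaving out 1 library at a time gave -0.0965 to 0.0257 for sex, 0.0706 to 0.199 for age and -0.232 to 0.151 for the difference of age slopes. Counts of loci rising and falling with PPARG were 173 and 167 with DESeq2 size factors, 334 and 277 with upper-quartile scaling, 6 and 0 with library totals, 267 and 231 with loci under 10 CPM left out, 676 and 496 in DESeq2, 227 and 207 on log2(FPKM + 0.1), 228 and 302 on log2(FPKM + 1), 2 and 0 with age added, 206 and 125 with total counts added, and 90 and 66 with the mitochondrial share added. Without 1 library they ran from 1 to 340 rising and from 0 to 439 falling. Loci whose slope differed by sex numbered 10 in DESeq2 and 0 to 11 without 1 library. Loci called by permutation of r numbered 0 without the libraries numbered 10, 0 without the 2 farthest libraries, and 0 to 28 without 1 library. The cause of these shifts was not tested.

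Of single genes, the slope of PPARA was -0.25 and -0.13 on FPKM with pseudocounts of 0.1 and 1 and -0.0023 without the libraries numbered 10, that of PCK1 was 0.030 and 0.0061 and that of CEBPA -0.10 and -0.10 on the same 2 FPKM scales. Leaving out 1 library at a time gave slopes of -0.12 to 0.25 for PPARD, -0.47 to 0.46 for RXRG and -0.52 to 0.48 for PCK1, the last 2 highest without castrated male 1. No paired analysis was possible because the labels number no replicates, and the numbers used here only name libraries. The counting error of PPARG was at most 1.26% of its value, against a spread of 23.9% between libraries, 1 per animal.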

Other observations

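Peroxisome genes, a list drawn up after PEX3 was seen among the risers, also had positive slopes on PPARG. Of 25 tested, 6 rose, against 0.533% of all loci, and 22 slopes were above 0. The median was 0.43 against -0.02 over all loci, and no test of the list was made. PEX3 is itself counted among the 25 and the 6, so its own rise is no support for the list. ABCD2, a transporter of very long-chain fatty acids into peroxisomes, had a slope of 1.49 (edgeR adjusted p = 0.0345), and stood at 17.2, 36.0 and 77.0 CPM (lowest, median and highest) in females and at 14.01, 33.8 and 77.5 CPM in castrated males. The other risers beside PEX3 were HSDL2 at 0.72, the thiolase ACAA1 at 0.64, catalase (CAT) at 0.56 and the peroxisomal carrier SLC25A17 at 0.51. Without castrated male 1, 24 of 25 slopes were above 0 with a median of 0.38 and 0 passed in edgeR.

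Serine and one-carbon genes, listed after PSAT1 was seen, had 4 of 4 tested slopes above 0, and 0 passed in edgeR. An unadjusted p under 0.05 was reached by 3 of the 4, against 18.2% of all loci. DESeq2 called PHGDH and PSPH, but not ASNS (slope 0.32) or MTHFD1 (slope 0.24). PHGDH, the first enzyme of serine synthesis, had a slope of 1.30 (edgeR adjusted p = 0.0670), and PSPH, the last, 1 (edgeR adjusted p = 0.0885). PHGDH stood at 23.1, 45.7 and 125 CPM in females and at 21.7, 30.6 and 109 CPM in castrated males. Without castrated male 1 the slopes of PHGDH and PSPH were 1.71 and 0.92.

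Heat shock and immediate early genes had 9 of 9 slopes above 0 with a median of 0.42 (0 passed in edgeR, 4 at an unadjusted p under 0.05, DNAJB1 in DESeq2), among them the chaperone genes DNAJB1 at 2.29 and HSPH1 at 1.56. Their median without castrated male 1 was 0.57.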
